A study of Xenopus tropicalis with 9 samples.

Results

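Of the 10336 genes in the deposited table, 52 (0.503%) were both abundant and steady in all 9 laser-captured libraries of cartilage and bone from the western clawed frog, Xenopus tropicalis. A gene was taken when its deposited value, a read count scaled by the authors, was at least 500 units in every library and its largest value was under 4 times its smallest. A unit was a deposited value of 9.52, the mean library total divided by 1000000, so the abundance bound lay at 4759. The genes were selected on all 9 deposited values, so the levels, ranges and group differences below are descriptions, and the label "steady" means no more than that bound.

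RNA came from areas cut out of tissue by laser, with 3 libraries in each group. Mature chondrocytes, cartilage cells that have enlarged and altered their matrix, were taken from the humerus, as were immature chondrocytes, which have not. Osteoblasts, which build bone, were taken from the medial angulosplenial of the lower jaw. All animals were wild type, were at stage NF 57 and 22 to 24 days after fertilisation at 27 to 28 °C, and were fed daily after stage NF 45 with no other treatment. Osteoblasts differ from both cartilage groups in body site as well as in cell type. The labels tie no library to an animal, so the spread between libraries of a group may be technical. In that case, where libraries of the same group share an animal, p-values would be too small. Numbers in the library titles differed within each group and repeated only between groups, but the labels do not say that they mark animals. The main model did not account for an animal shared between groups.

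Every cell keeps a core of abundant transcripts in use, among them those for ribosomes, the cytoskeleton, energy metabolism and protein folding. Genes of this kind are often used as a fixed standard against which the genes of a cell type are read. Chondrocytes surround themselves with a matrix of collagen and proteoglycan, and osteoblasts lay down a collagen matrix that mineralises, so both are secretory cells. Genes appear in the table under Ensembl identifiers only, and the RefSeq gene table used here paired 0 of the 10336 with a symbol. The roles of the 52 genes are therefore not given, and cell type markers were not checked here.

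The libraries differed in their deposited totals. Totals were 7594328 to 14055110 in mature chondrocytes, 7854945 to 8860505 in immature chondrocytes and 7885947 to 10886339 in osteoblasts, and mature replicate 3 held 1.85 times the total of mature replicate 1. The reads behind them were estimated at 7160000 to 8850000 for mature chondrocytes, 9470000 to 10720000 for immature chondrocytes and 7560000 to 13070000 for osteoblasts, with 8850000 in mature replicate 3 against 8090000 in mature replicate 1. The lowest value of any of the 52 genes in a library rested on an estimated 3280 reads or more, for which counting error alone is at most 1.75% of the value. PCR and amplified copies are not independent molecules, so that figure covers counting error only.

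The 52 genes made up 19.5%, 22.8% and 24.7% of the totals of mature replicates 1, 2 and 3, against 23.2%, 21.4% and 21.4% in the immature libraries and 18.6%, 17.2% and 20.3% in the osteoblast libraries. The mean share was 22.3% ± 2.60 for mature chondrocytes, 22.0% ± 1.01 for immature chondrocytes and 18.7% ± 1.53 for osteoblasts (SD, n = 3 each). The lowest mature library lay below the highest osteoblast library, and every immature library lay above every osteoblast library. In captured tissue, fewer cells of a type and less RNA per cell cannot be told apart. Another 63 genes passed the abundance bound but not the steadiness bound, and their share was 39.1% ± 6.87 for mature chondrocytes, 36.9% ± 2.72 for immature chondrocytes and 31.6% ± 3.79 for osteoblasts (SD, n = 3 each).

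**Figure D1:**
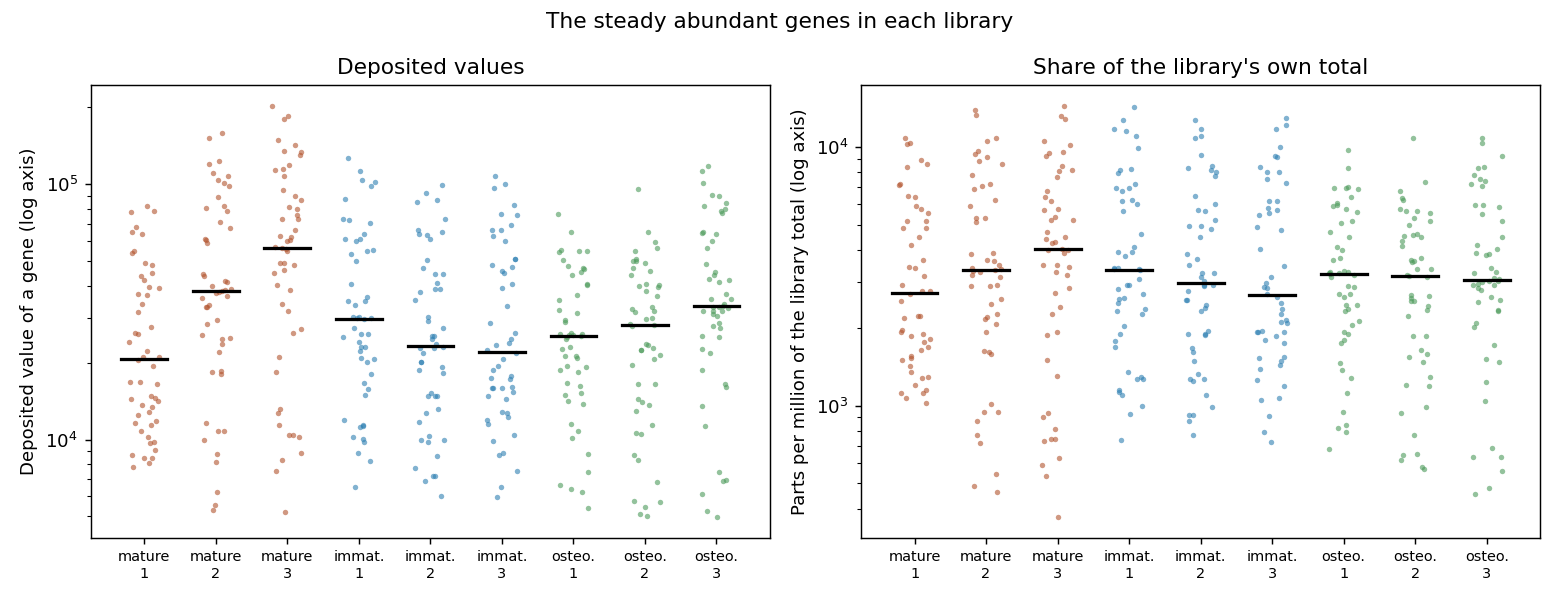
Each point is 1 of the 52 genes, each bar the median of a library, with mature libraries left, immature libraries in the middle and osteoblast libraries right, as deposited values (left panel) and as parts per 1000000 of the library's own total (right panel), both on log axes. The median deposited value of the genes is 56317 in mature replicate 3 and 20743 in mature replicate 1, and the medians lie closer together as shares of the total.

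The genes covered a wide range of levels. Expressed in ppm, parts per 1000000 of each library's own total, the mean over 9 libraries ran from 769 ppm to 10917 ppm, with a median of 3117 ppm. Of the 52, 37 were among the 100 genes with the highest mean share in the table and 6 among the top 20, and the highest ranked 9.

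ENSXETG00000024782 was the most abundant of the 52. Its deposited values were 77885, 158698 and 202670 in mature chondrocytes, 101747, 91875 and 75634 in immature chondrocytes and 65018, 95477 and 90470 in osteoblasts. Mature replicates 2 and 3 lay above all other libraries, while mature replicate 1 lay within the range of the other groups. As shares of the library total, mature chondrocytes stood at 10256, 13903 and 14420 ppm, immature chondrocytes at 11483, 11696 and 9141 ppm and osteoblasts at 8245, 10802 and 8310 ppm. The largest value was 3.12 times the smallest on the deposited scale and 1.75 times on the share scale.

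ENSXETG00000009030 was the next most abundant gene. Its deposited values were 67717, 120186 and 185181 in mature chondrocytes, 126118, 86557 and 96558 in immature chondrocytes and 54836, 64670 and 89886 in osteoblasts. The groups overlapped on this scale. As shares the gene stood at 8917, 10529 and 13175 ppm in mature chondrocytes, at 14234, 11019 and 11670 ppm in immature chondrocytes and at 6954, 7317 and 8257 ppm in osteoblasts, where all 6 cartilage libraries lay above all 3 bone libraries.

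The steadiest genes varied less than 2-fold. ENSXETG00000027259 had deposited values of 8720, 9915 and 8832 in mature chondrocytes, 11242, 9951 and 9869 in immature chondrocytes and 6614, 6826 and 11302 in osteoblasts, and its largest value was 1.71 times its smallest. Osteoblast replicate 3 was the highest of all libraries and the other two osteoblast libraries were the lowest. ENSXETG00000012394 had 22213, 32912 and 38402 in mature chondrocytes, 34684, 24675 and 24653 in immature chondrocytes and 24788, 29676 and 32965 in osteoblasts, a ratio of 1.73. All 3 groups overlapped on deposited values. Their means were 31176 ± 8233 for mature chondrocytes, 28004 ± 5785 for immature chondrocytes and 29143 ± 4114 for osteoblasts (SD, n = 3 each). As shares of the library total, its mature libraries stood at 2925, 2883 and 2732 ppm, below all other libraries, of which the lowest was at 2979 ppm. For ENSXETG00000027259 the immature shares of 1269, 1267 and 1193 ppm lay above those of all mature and osteoblast libraries, at 1148 ppm or less.

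The choice of scale separated these 2 genes. With each library brought to the same total, the ratio of ENSXETG00000012394 was 1.43, the lowest of the 52, and that of ENSXETG00000027259 was 2.02. Over all 52 genes the median ratio of the largest to the smallest value was 3.20 on deposited values and 2.23 on equal totals. It was smaller on equal totals for 44 genes and larger for 8. Only 3 genes stayed under 2-fold on deposited values, against 16 on equal totals, and 20 stayed under 3-fold on deposited values.

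A single library set the upper end of the range for most of these genes. Mature replicate 3 held the largest of the 9 deposited values for 34 of the 52, and mature replicate 1, of the same group, held the smallest for 14, the most of any library. Osteoblast replicates 2 and 1 held the smallest for 13 and 10. On equal totals the smallest lay in mature replicate 1 for 6 of the 52, and in osteoblast replicates 2 and 1 for 14 and 8. Over all 9080 genes tested below, the smallest deposited value lay in mature replicate 1 for 8.76%, and in osteoblast replicates 2 and 1 for 14.5% and 26.5%. Over the same 9080 genes, mature replicate 3 held the largest value for 9.78%. It also held the largest for 41 of the 63 abundant genes that were not steady, so this was not particular to the 52. It held the largest share for 12 of the 52 on equal totals. No other library held the largest deposited value for more than 8 of the 52, the number in osteoblast replicate 3.

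The genes moved together from library to library. Taking each gene relative to its own mean on the log2 scale, the median of the 52 was -0.44, 0.39 and 0.82 in mature replicates 1, 2 and 3, 0.06, -0.20 and -0.18 in the immature libraries and -0.39, -0.35 and 0.21 in the osteoblast libraries. Such a shift common to all 52 made up 42.9% of their log2 variation on deposited values. It was taken library by library, so a group difference that the 52 genes share is counted within it. After that shift, differences between the group means of each gene made up 21.8%, and spread within groups the remaining 35.2%. Means of 3 libraries differ through that spread alone, so part of the 21.8% would arise without a group difference. The common shift on equal totals was 6.47% of the variation, and the median SD of a gene over the 9 libraries was 0.38 in place of 0.55. Abundant genes make up much of each library's total, so dividing by the total takes out part of such a shift by itself.

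On deposited values the typical gene of the table did not follow this shift. Trimmed-mean scaling, which levels the bulk of the genes, moved the deposited columns by only -1.55% to 2.05%. The column of osteoblast replicate 1 moved by 0.06%. A scale that levels the bulk of the genes can by itself hold the typical gene near 0. How far it did so here was not tested. The median deviation of all 9080 tested genes was 0.08, -0.12 and 0.00 in mature replicates 1, 2 and 3 on deposited values, and it was within 0.12 of 0 in every other library except osteoblast replicate 1, at -0.29. Among the 91 genes with a mean of 2500 units or more, the median deviation was -0.50, 0.45 and 1.09 in mature replicates 1, 2 and 3, 0.10, -0.17 and -0.30 in the immature libraries and -0.56, -0.29 and 0.19 in the osteoblast libraries. The median of all tested genes on equal totals was 0.33, -0.37 and -0.49 in mature replicates 1, 2 and 3, the reverse of the order of the 91 genes on deposited values. All 115 abundant genes together took between 46.0% and 69.0% of a library's total.

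**Figure D2:**
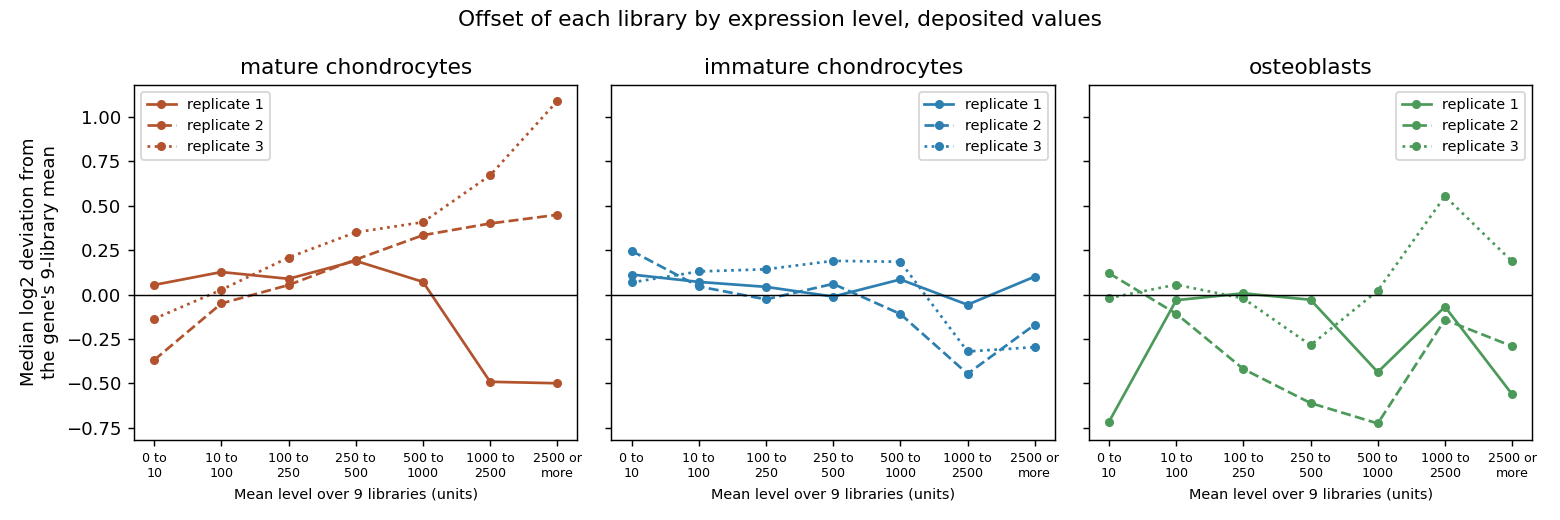
Median log2 deviation of genes from their own mean over the 9 libraries (vertical axis, deposited values) by mean level in units (horizontal axis), with 1 line per library and 1 panel per group. In mature chondrocytes the lines part as the level rises, to 1.09 in replicate 3 and -0.50 in replicate 1 for the 91 most abundant genes.

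Membership therefore depended on the scale. On deposited values 115 genes passed the abundance bound and 52 (45.2%) of them were steady. On equal totals 120 genes passed it and 97 (80.8%) were steady. The choices shared 46 genes, which is 88.5% of the 52 and 47.4% of the 97. Of the 51 genes gained on equal totals, 44 had already passed the abundance bound on deposited values, and 38 had their largest deposited value in mature replicate 3. Without mature replicate 3, 83 genes met the rule on deposited values, and leaving out any other library gave 52 to 65.

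**Figure D3:**
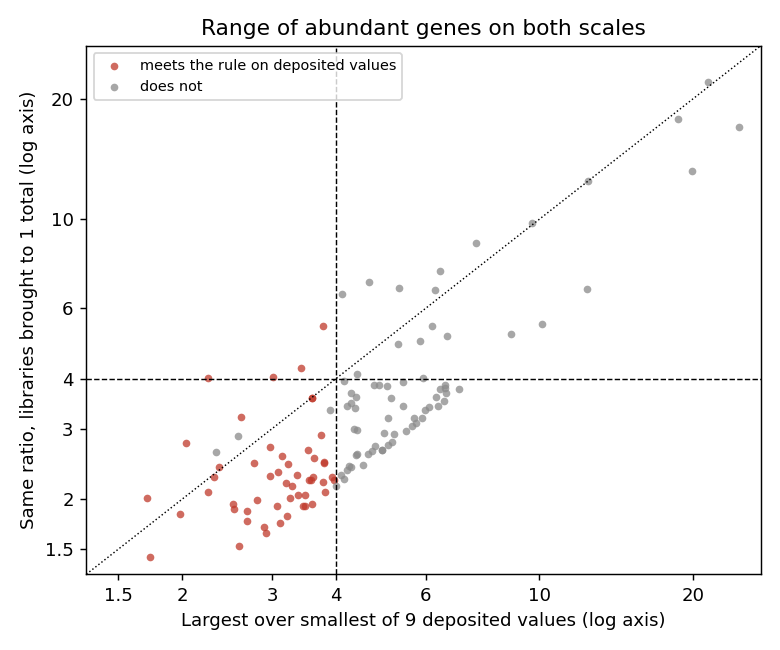
Ratio of the largest to the smallest of the 9 values for each gene past the abundance bound on either scale, on deposited values (horizontal, log axis) and with libraries brought to the same total (vertical, log axis); red points are the 52 genes, dashed lines mark the bound of 4 and the dotted line equal ratios. Most points lie below the dotted line, and many gray points lie right of the upright dashed line but under the level one.

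Of the 52 genes, 6 met the rule on deposited values and not on equal totals, with 4 falling outside the abundance bound and 4 outside the steadiness bound. ENSXETG00000005273, 1 of the 6, had 26056, 18390 and 12690 in mature chondrocytes, 25811, 23675 and 23784 in immature chondrocytes and 7464, 8298 and 6913 in osteoblasts. Every cartilage library lay above every bone library on this scale. As a share, mature replicate 3 at 903 ppm lay below osteoblast replicates 1 and 2 at 946 and 939 ppm. Its ratio was 3.77 on deposited values and 5.40 on equal totals, the widest of the 52. The other five were ENSXETG00000024806, ENSXETG00000015477, ENSXETG00000013323, ENSXETG00000001951 and ENSXETG00000000321, with ratios on equal totals of 4.24, 4.03, 4.03, 3.22 and 2.77.

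Steadiness under 4-fold was rare among the least abundant genes and varied less among the others on the deposited scale. It held for 2.04% of the 5336 genes with a mean under 10 units, 22.8% of the 4127 genes with a mean of 10 to 100 units, 33.7% of the 513 at 100 to 250 units, 29.8% of the 151 at 250 to 500 units, 26.0% of the 73 at 500 to 1000 units, 31.1% of the 45 at 1000 to 2500 units and 36.3% of the 91 at 2500 units or more. Genes listed at 0 in a library counted as not steady. Among those 91 genes the share was 76.9% on equal totals, against 18.8% of the genes at 10 to 100 units. All 33 steady genes at 2500 units or more on the deposited scale were among the 52. At that mean a steady gene passes the abundance bound in every library by arithmetic alone.

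Each group on its own held many more genes that met the rule. In mature chondrocytes 134 of the 164 genes past the abundance bound (81.7%) were also steady, in immature chondrocytes all 165 of 165, and in osteoblasts 127 of 138 (92.0%). Combining groups lowered the count to 111 of 147 genes for mature with immature chondrocytes, 64 of 119 for mature chondrocytes with osteoblasts and 94 of 118 for immature chondrocytes with osteoblasts. The rule needs every library to pass, so adding libraries can only keep or lower these counts. A set of 6 libraries has a wider range than a set of 3 by its size alone. With equal totals, 133 of 145 genes were steady for mature with immature chondrocytes. It was 104 of 122 for mature chondrocytes with osteoblasts and 109 of 125 for immature chondrocytes with osteoblasts.

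Within groups the 52 genes spread most in mature chondrocytes, while over the whole table osteoblasts spread most. The median SD of the 52 genes within a group was 0.63 in mature chondrocytes, 0.27 in immature chondrocytes and 0.46 in osteoblasts on the log2 scale. Over all tested genes the values were 0.67 for mature chondrocytes, 0.34 for immature chondrocytes and 0.97 for osteoblasts. Brought to equal totals, the SD of the 52 genes was 0.35 in mature chondrocytes, 0.22 in immature chondrocytes and 0.31 in osteoblasts. The rule capped these SDs, so they are not compared further.

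Within the humerus, mature chondrocytes were set against immature chondrocytes to see how far the genes stayed level as cartilage matures. On log2 deposited values 46 of the 52 were higher in mature chondrocytes, against 43.7% of all 9080 tested genes. Their median difference was 0.41, with a range from -0.57 to 0.78, where the median of all tested genes was -0.09. The upward shift of mature replicates 2 and 3, which other abundant genes shared, enters these differences. On equal totals 29 of the 52 were higher, against 26.6% of all tested genes. Their median was 0.05, where the median of all genes was -0.37. Limma, a linear model fitted across all genes, called 0 of the 52 and 0% of all tested genes at an adjusted p under 0.05. Without adjustment 457 genes, or 5.03% of those tested, had a p under 0.05, and 0 of them were among the 52. The rule used these values, so nothing is read from those counts.

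ENSXETG00000021905 had the highest such difference, 0.78 (SE 0.52) on the log2 scale. Its deposited values were 12453, 24643 and 48873 in mature chondrocytes and 17981, 13132 and 12650 in immature chondrocytes, so mature replicate 1 lay below every immature library and the groups overlapped. ENSXETG00000013323 had the lowest, -0.57 (SE 0.41), with 10751, 6219 and 5204 in mature chondrocytes against 11261, 11715 and 8670 in immature chondrocytes. Mature replicates 2 and 3 lay below the immature libraries and mature replicate 1 lay among them. The groups did not overlap on deposited values for 1 of the 52 genes, higher in mature chondrocytes, against 4.57% of all tested genes in that direction, and for 0 that were lower, against 5.94%. With equal totals it was 2 of the 52 that were higher, against 262 of the 9080 tested genes (2.89%). It was 3 of the 52 that were lower, against 745 of the 9080 (8.20%). The gene counted on deposited values, ENSXETG00000002942, picked after its values were seen, had 31532, 38681 and 75270 in mature chondrocytes against 30127, 30233 and 26030 in immature chondrocytes. As shares it overlapped, at 4152, 3389 and 5355 ppm against 3400, 3849 and 3146 ppm.

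Mature chondrocytes were next set against osteoblasts of the jaw. On log2 deposited values 45 of the 52 genes were higher in mature chondrocytes, against 54.2% of all tested genes. Their median difference was 0.40, with a range from -0.76 to 1.27, where the median of all genes was 0.12. On equal totals 31 were higher, against 48.2% of all tested genes. Their median was 0.17, where the median of all genes was -0.05. Limma called 0 of the 52 at an adjusted p under 0.05, against 11.7% of all tested genes, and 2 of the 52 at an unadjusted p under 0.05, against 24.7%. The rule bounded these differences too, so nothing is read from these counts. The groups did not overlap for 3 of the 52, all higher in mature chondrocytes, against 11.7% of all tested genes in that direction, and for 0 that were lower, against 11.5%. With equal totals it was 9 of the 52 that were higher, against 778 of the 9080 tested genes (8.57%). It was 1 of the 52 that was lower, against 1174 of the 9080 (12.9%).

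Those 3 genes were ENSXETG00000005273, ENSXETG00000009396 and ENSXETG00000024723, of which the last 2 were picked after their values were seen. ENSXETG00000009396 had 78385, 107202 and 147986 in mature chondrocytes against 55118, 49848 and 76885 in osteoblasts, a log2 difference of 0.85. ENSXETG00000024723 had 8498, 10763 and 10438 in mature chondrocytes against 6429, 5436 and 7457 in osteoblasts, a log2 difference of 0.62. As shares it overlapped, at 1119, 943 and 743 ppm against 815, 615 and 685 ppm. On equal totals only ENSXETG00000009396 of these 3 genes kept the groups apart. The difference of ENSXETG00000005273 was 1.27 (SE 0.42), the highest of the 52 in this comparison. ENSXETG00000024806 had the lowest, -0.76 (SE 0.44), with 9812, 8775 and 13186 in mature chondrocytes against 25728, 11405 and 18664 in osteoblasts, and the groups overlapped.

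Immature chondrocytes were also set against osteoblasts. The 52 genes were split almost evenly here, with 27 higher and 25 lower in immature chondrocytes on log2 deposited values, a median difference of 0.02 and a range from -0.96 to 1.69, where the median of all genes was 0.23. On equal totals 33 were higher and 19 lower, with a median of 0.15, where the median of all genes was 0.35. Of all tested genes, 58.1% were higher in immature chondrocytes on deposited values and 61.8% on equal totals. Limma called 1 of the 52 at an adjusted p under 0.05, against 13.3% of all tested genes, and 2 at an unadjusted p under 0.05, against 27.4%. As in the other comparisons, the rule bounded these differences, so the calls among the 52 are description only. The called gene was ENSXETG00000005273, higher in immature chondrocytes by 1.69 (SE 0.42) on the log2 scale, with a mean of 24423 ± 1203 there and 7558 ± 697 in osteoblasts (SD, n = 3 each). It was not called without immature replicate 1, 2 or 3, where the count was 0, although the log2 difference was then 1.65, 1.72 and 1.71.

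The groups did not overlap for 3 of the 52 that were higher in immature chondrocytes, against 19.7% of all tested genes, and for 3 that were lower, against 14.7%. The higher ones were ENSXETG00000005273, ENSXETG00000009396 and ENSXETG00000013323. Likewise picked by this count, the lower ones were ENSXETG00000024806, ENSXETG00000026219 and ENSXETG00000022018. ENSXETG00000024806 had the lowest difference, -0.96 (SE 0.44), with 11384, 8616 and 7528 in immature chondrocytes against 25728, 11405 and 18664 in osteoblasts, where osteoblast replicate 2 lay only just above the highest immature library. ENSXETG00000022018, picked after its values were seen, had 23970, 21745 and 23443 in immature chondrocytes against 35169, 36558 and 33412 in osteoblasts, while mature chondrocytes spanned both groups at 20503, 35939 and 59886. With equal totals the groups did not overlap for 12 of the 52 that were higher, against 2036 of the 9080 tested genes (22.4%). It was 5 of the 52 that were lower, against 1228 of the 9080 (13.5%).

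**Figure D4:**
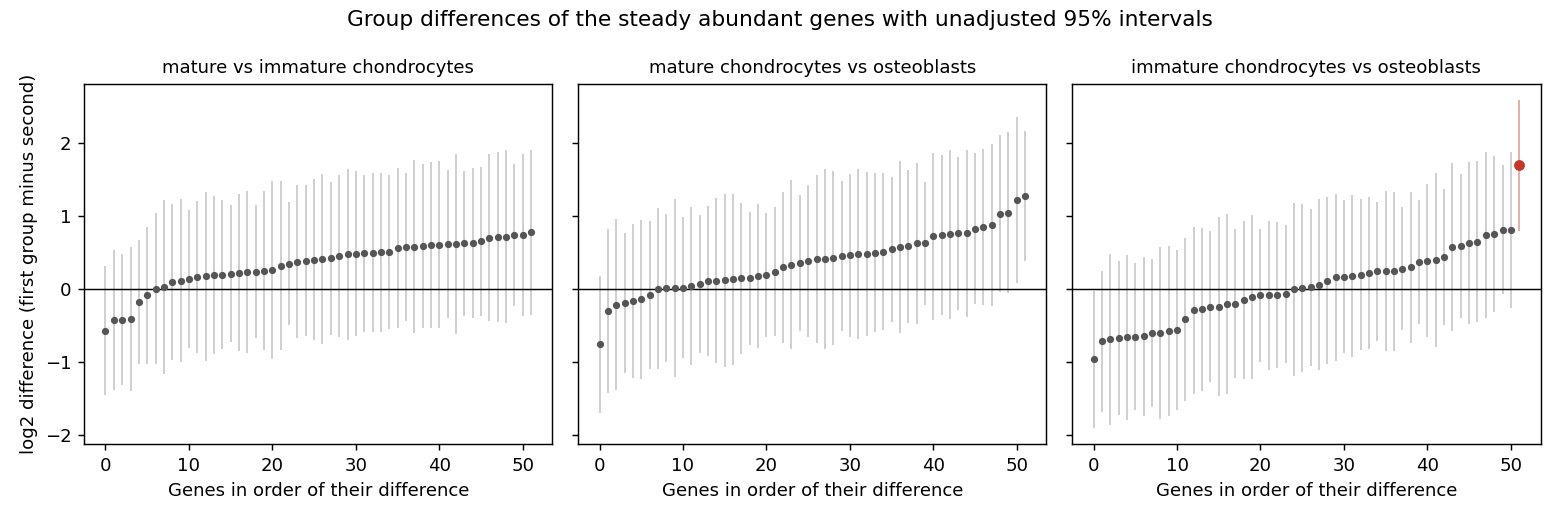
Log2 difference between group means of deposited values for each of the 52 genes, in order of size, with unadjusted 95% intervals from limma, in 3 panels for mature against immature chondrocytes, mature chondrocytes against osteoblasts and immature chondrocytes against osteoblasts. The gene drawn in red, at 1.69 in the right panel, is the only one of the 52 called at an adjusted p under 0.05 in the 3 comparisons. The rule that chose the genes bounded all of these differences.

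The precision of these differences was limited. Unadjusted 95% intervals of the log2 differences reached ± 1.08 in the median of the 52 genes and ± 1.43 in the median of all tested genes. An absence of calls among the 52 does not show that their levels were equal. The highest group mean was a median of 1.67 times the lowest on deposited values, and 17 of the 52 genes stayed under 1.5 times. Equal totals gave a median of 1.41, and 37 stayed under 1.5 times.

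Which group was highest depended on the scale as well. On deposited values the mature mean was the highest of the 3 for 40 genes, the immature mean for 6 and the osteoblast mean for 6. With equal totals the highest mean was the mature for 18, the immature for 17 and the osteoblast for 17. The osteoblast mean was the lowest for 25 genes on deposited values and for 26 on equal totals, and the immature mean for 26 and 16.

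**Figure D5:**
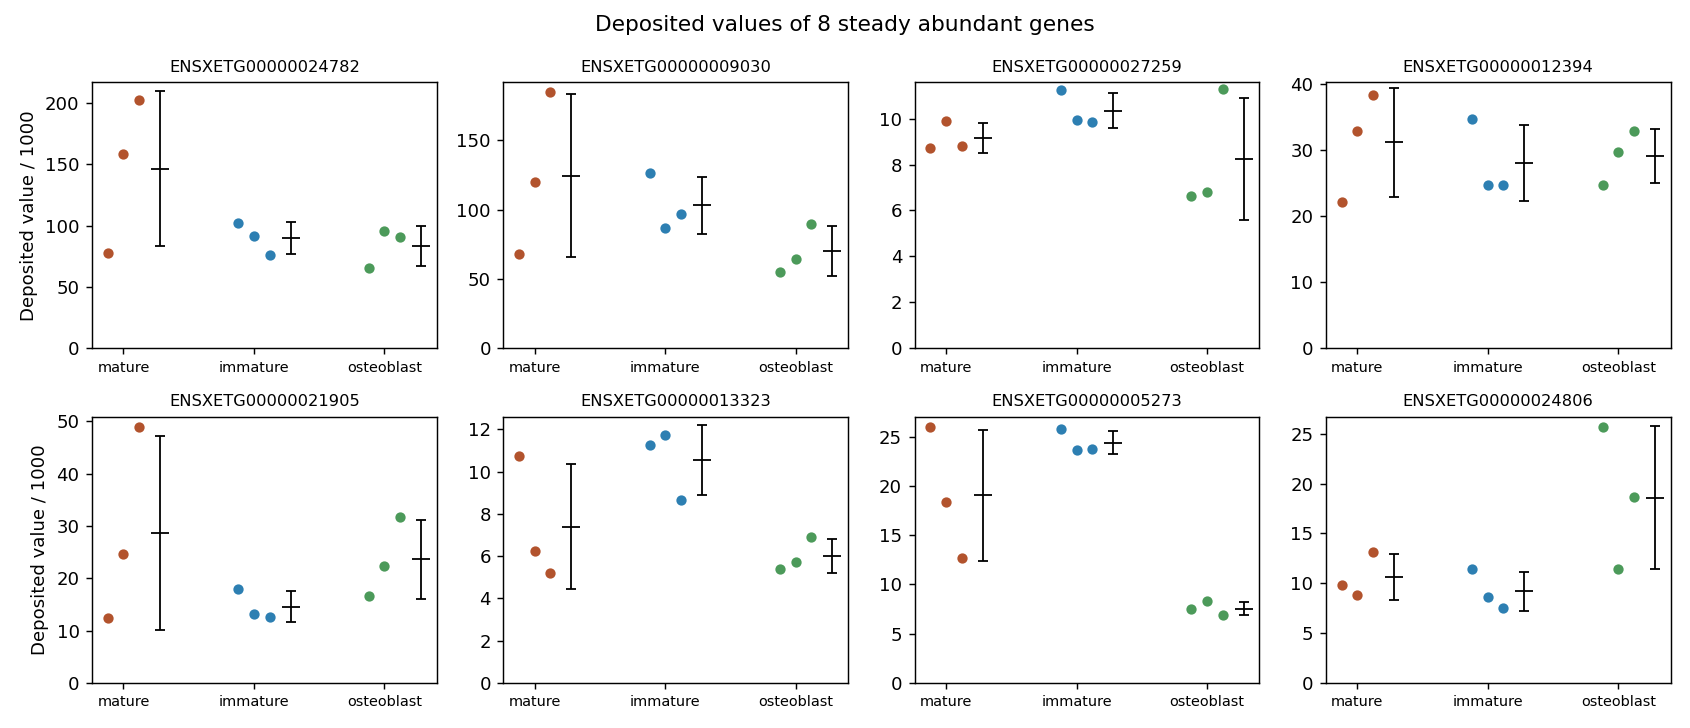
Deposited values divided by 1000 of 8 of the 52 genes, with 1 point per library, and the mean with its SD (n = 3) right of the points as a bar with caps, for mature chondrocytes, immature chondrocytes and osteoblasts from left to right. ENSXETG00000005273 is lower in all 3 osteoblast libraries than in all 6 cartilage libraries. Mature replicate 3 is the highest point for ENSXETG00000024782, ENSXETG00000009030, ENSXETG00000012394 and ENSXETG00000021905.

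On the share scale the 52 genes still differed between libraries, in a pattern that separated immature chondrocytes from osteoblasts but split mature chondrocytes. The first principal component of their log2 shares held 36.3% of the variation. The scores were -2.29, 0.71 and 2.12 in mature replicates 1, 2 and 3, -1.36, -2.04 and -1.87 in the immature libraries and 1.40, 1.12 and 2.21 in the osteoblast libraries. Mature replicate 1 lay with the immature libraries and mature replicates 2 and 3 lay on the side of the osteoblasts. The second component, with 26.9%, placed mature replicates 2 and 3 at -1.74 and -2.11 and osteoblast replicates 1 and 2 at 2.69 and 2.06, with osteoblast replicate 3 at -0.34.

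Values near the bounds show how fine the choice was. Just inside the bound of 4, ENSXETG00000001461 had a ratio of 3.97 and ENSXETG00000021905 a ratio of 3.92. Just outside it, ENSXETG00000025510 had 4.003 and ENSXETG00000015483 had 4.10. All 4 genes had their largest value in mature replicate 3. At the abundance bound of 4759, the lowest values just inside were 4966 for ENSXETG00000001951 and 5030 for ENSXETG00000000321, and just outside 4528 for ENSXETG00000034365 and 4463 for ENSXETG00000000730. The smallest value lay in an osteoblast library for all 4 of these.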

How the data were processed

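Per the submitters' processing notes, the authors used Trimmomatic 0.36, STAR 2.5.3a and edgeR. RNA was amplified linearly before library preparation, per the labels' protocols. For the genome build, annotation, counting and scaling, the sources used here give no account. Here the authors' deposited values were handled as a score and taken as scaled and rounded read counts. In mature replicates 2 and 3 and osteoblast replicate 2, 1 read was estimated at 1.59, 1.59 and 1.17, so low values skip whole numbers. In the other libraries the estimate was 0.73 to 0.998. Such steps skip no whole number and show only in how often each occurs. A step of 0.998, in osteoblast replicate 1, can hardly be told from 1. Trimmed-mean scaling of the deposited columns, computed here, moved them by -1.55% to 2.05%. The size of the steps gave the estimated reads (values up to 200 used). Exact reads were not recovered, so no count model was run.

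The members and lists were chosen with earlier results of these data known. The gene lists drawn up by symbol, for families and cell types, could not be used. Group differences were fitted with limma 3.58.1 (R 4.3.3) on log2(value + 9.52) with a variance trend, over all 9 libraries, for the 9080 genes at 1 unit or more in at least 3 libraries, and p-values were adjusted by Benjamini-Hochberg over all of them. On simulated data for 9080 genes, the mature against immature comparison recovered 68.2% at 8-fold, 13.4% at 4-fold and 0% at 2-fold, and 1 of 55 calls was an unchanged gene. The simulated mature chondrocytes against osteoblasts recovered 63.6% at 8-fold, 14.9% at 4-fold and 8.96% at 2-fold. They had 19 unchanged genes among 77 calls, more than the threshold of 0.05 allows. The simulated immature chondrocytes against osteoblasts recovered 59.1%, 19.4% and 0%, and had 2 unchanged genes among 54 calls. Simulated noise was independent between genes and held no library offset, unlike the data. Named genes were the 2 most abundant, the 2 steadiest, the highest and lowest in each comparison, and the 2 nearest each side of each bound. Alternatives changed the scaling, bounds, pseudocount, filter, variance model, library weights and libraries used. Python 3.11.15, numpy 2.4.6, pandas 2.3.3 and matplotlib 3.10.9 were used.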

Additional observations from a re-analysis of the deposited data

How the results depend on the processing

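The 52 genes became 97 on equal totals, 3, 20 and 106 with bounds of 2, 3 and 8 times, and 52 to 83 with a library left out, 83 being without mature replicate 3. Trimmed-mean scaling gave 51, and bounds of 250 and 1000 units gave 67 and 39. Chosen anew with a library left out, the genes took 22.3% to 34.4% of the mature total and 21.8% to 36.2% of the immature total. Of the osteoblast total they took 18.7% to 33.1%. Each share was highest without mature replicate 3, the library whose removal gave the most genes, 83. Limma called 0 genes between mature and immature chondrocytes, 468 with library weights, and 0 to 262 with a library left out, 262 being without mature replicate 1. For mature chondrocytes against osteoblasts it called 1065, 615 in a fit without the immature libraries, and 695 to 952 with a library left out. For immature chondrocytes against osteoblasts it called 1207, and 630 to 1401 with a library left out. The rule bounded the differences of the 52 genes, so nothing is read from the counts of calls among them. Of the 52, 0 were called between mature and immature chondrocytes in all of these settings. Over all tested genes it was 468 with library weights and 262 without mature replicate 1. For mature chondrocytes against osteoblasts 1 was called with the title number as a replicate block, against 1204 of all tested genes. It was 0 to 1 with a library left out, 1 being without mature replicate 3, where 774 of all tested genes were called. For immature chondrocytes against osteoblasts 0 to 1 was called with a library left out, 0 being without any 1 of the immature libraries. Any 2 groups have 1 title number in common. Libraries with the same number deviated from their group means with correlations of 0.32, 0.10 and -0.10. The fitted correlation within a title number was 0.19. With that block, limma called 1204 genes for mature chondrocytes against osteoblasts and 1396 for immature chondrocytes against osteoblasts. So few pairs neither show nor exclude a pairing. The causes of these changes were not tested.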

Other observations

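Some of the 52 genes followed each other closely, a pattern noticed in the data. Across the 9 libraries, which share their totals and their division into tissues, the log2 shares of ENSXETG00000010098 and ENSXETG00000020355 correlated at 0.97 (Pearson), the highest of all pairs of the 52. ENSXETG00000034377 and ENSXETG00000034390 correlated at 0.96, and each correlated at 0.94 and 0.91 with ENSXETG00000034361. No pair had identical values in all libraries.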
